A study of Homo sapiens with 6 samples.

Results

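SR proteins and hnRNPs are the main families of RNA-binding proteins that decide which exons a cell keeps in its messenger RNA. Their genes were described here in HaCaT cells, a line of immortalised human keratinocytes, after daily mild heat. All rows of the deposited count table were taken whose symbol begins with SRSF and ends in a number, is TRA2A or TRA2B, or begins with HNRNP, with a mean of at least 50 counts over the libraries. This gave 33 genes of the 15379 in the table, 13 in the SR family (with TRA2A and TRA2B, which share its arginine-serine repeats) and 20 in the hnRNP family. All 33 passed the filter on low counts and were among the 12056 genes tested. Cultures were treated at 37C (3 libraries) or 41C (3 libraries), 1 h daily for 3 days in both arms, with no other agent. Every library comes from this single line. The labels do not call the replicates separate cultures, so the p-values may reflect technical spread alone. The sources used here do not give the time from the last exposure to RNA extraction.

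The library totals ran from 19659112 to 20856144 counts. All 8 keratinocyte markers on the list examined were present, with a summed level of 6196 to 6857 CPM (counts per 1000000 counts, scaled between libraries) at 37C and 7332 to 7695 CPM at 41C. KRT5 and KRT14 made up most of this sum. These 2 and KRT17, COL17A1, ITGB4 and LAMB3 were each higher in every 41C library than in every 37C library. COL17A1, for example, had 621 to 656 CPM at 37C and 762 to 766 CPM at 41C. For the 2 other markers the groups overlapped: TP63 had 196 to 207 CPM at 37C and 199 to 209 CPM at 41C, and DSG3 had 229 to 252 and 227 to 250.4 CPM. Fibroblast markers (4 of 5 found, led by COL1A1) summed to 3.55 to 4.30 CPM at 37C and 3.11 to 3.36 CPM at 41C, and melanocyte markers (2 of 4 found) to 1.86 to 2.58 and 1.71 to 2.96 CPM. Whether the higher sum at 41C plays a part in the values below was not tested. In these bulk libraries fewer cells of a type and less RNA per cell cannot be told apart.

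As background, SR proteins bind exonic enhancer sequences through RNA recognition motifs and recruit the splicing machinery through domains rich in arginine and serine, which the SRPK and CLK kinases phosphorylate. Many hnRNPs bind intronic or exonic silencers and oppose exon inclusion, and they also package, export and stabilise transcripts. Heat shock is known to change SR protein phosphorylation, SRSF10 being the classical case of an SR protein that represses splicing once dephosphorylated, and to move SRSF1 to nuclear stress bodies and HNRNPA1 to stress granules. Many SR and hnRNP genes also carry a poison exon whose inclusion sends the transcript to nonsense-mediated decay. Counts per gene show neither phosphorylation nor location nor exon choice, so the values below concern the amount of transcript only.

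Because the treatment was heat, the promoters were searched for the heat shock element, the inverted GAA repeats bound by HSF1, and the 3 promoters printed are those of the members that held such letters. Promoter windows of RefSeq (GRCh38.p14, 250 bases before to 50 after each start) were found for 30 of the 33 members. HNRNPA1, SRSF2 and TRA2A had no entry. The 3-unit form, GAANNTTCNNGAA or TTCNNGAANNTTC, which covers both strands, stood in 1 of the 30 members, HNRNPA2B1. Counted by promoter, since a gene can have several starts, this was 1 of 44 member promoters, against 0.490% of all 35116 promoters and 0.320% of the 14383 promoters of tested genes. The 2-unit form, GAANNTTC or TTCNNGAA, which every 3-unit match also holds, stood in 3 of the 30 members (HNRNPA2B1, HNRNPC and SRSF8). By promoter these were 4 of 44 (9.09%), against 13.5% of all promoters and 10.5% of those of tested genes. The windows lie at chr7:26200697-26200996 on the minus strand, chr14:21269393-21269692 on the minus strand and chr11:95066627-95066926 on the plus strand. They are shown 5′ to 3′ with the matched letters in capitals.
HNRNPA2B1: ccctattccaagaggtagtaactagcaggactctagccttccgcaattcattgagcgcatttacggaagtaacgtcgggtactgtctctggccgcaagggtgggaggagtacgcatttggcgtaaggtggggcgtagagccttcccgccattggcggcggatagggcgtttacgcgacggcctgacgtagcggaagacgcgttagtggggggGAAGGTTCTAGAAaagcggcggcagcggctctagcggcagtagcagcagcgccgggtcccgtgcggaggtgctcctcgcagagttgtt
HNRNPC: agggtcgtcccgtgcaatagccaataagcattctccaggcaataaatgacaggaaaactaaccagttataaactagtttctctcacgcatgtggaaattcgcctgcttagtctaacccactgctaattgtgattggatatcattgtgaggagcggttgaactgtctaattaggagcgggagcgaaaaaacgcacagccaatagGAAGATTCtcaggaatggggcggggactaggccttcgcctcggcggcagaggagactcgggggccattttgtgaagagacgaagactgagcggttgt
SRSF8: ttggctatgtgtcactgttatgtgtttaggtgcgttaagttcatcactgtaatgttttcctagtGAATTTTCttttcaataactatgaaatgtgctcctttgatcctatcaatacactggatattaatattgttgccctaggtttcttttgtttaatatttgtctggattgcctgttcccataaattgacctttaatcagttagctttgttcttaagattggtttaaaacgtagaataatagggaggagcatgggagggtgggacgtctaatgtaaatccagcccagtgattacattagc
The 3-unit match of HNRNPA2B1 began 38 bases before the start, the 2-unit match of HNRNPC 47 bases before it and that of SRSF8 186 bases before it. A match is a run of letters and not evidence that a factor binds there. The transcripts of all 3 genes are described below with the others.

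The SR and hnRNP transcripts differed little between 41C and 37C, with log2 changes from -0.16 to 0.11. None of the 33 passed the threshold, an adjusted p of 0.05 in edgeR's quasi-likelihood test, where 1.09% of all tested genes did. DESeq2 and limma-voom also called 0. At an unadjusted p under 0.05 there were 2 members, HNRNPLL and HNRNPUL1, which is 6.06% against 13.7% of all tested genes. The 3 libraries of one temperature lay wholly above the 3 of the other in 3 members, HNRNPLL, HNRNPU and HNRNPUL2, or 9.09% against 20% of all tested genes. Both shares were below the background.

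Counts of calls do not show that levels were alike, so the interval of each change is given. The 95% interval of the log2 change, taken gene by gene from the fit and not widened for the number of genes, lay inside a 1.2-fold change in either direction for 32 of the 33 members. The exception was HNRNPLL. All 33 intervals lay inside a 1.5-fold change. Among the 8222 tested genes whose mean count fell in the members' range (329 to 27731 counts), 72.4% had an interval inside a 1.2-fold change. The log2 change itself was under 0.1 in size in 30 of the 33 members (90.9%) and in 69.5% of those 8222 genes. Its median size was 0.029 in the members and 0.065 in those genes. The 2 sets were not matched for precision. The median standard error was 0.046 in the members and 0.0655 in those genes, and smaller errors give narrower intervals and smaller estimates. HNRNPA1L2 alone set the lower end of the range, the next member being SRSF8 with a mean of 983 counts. Whether the members were steadier than genes of equal precision was not tested.

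**Figure D1:**
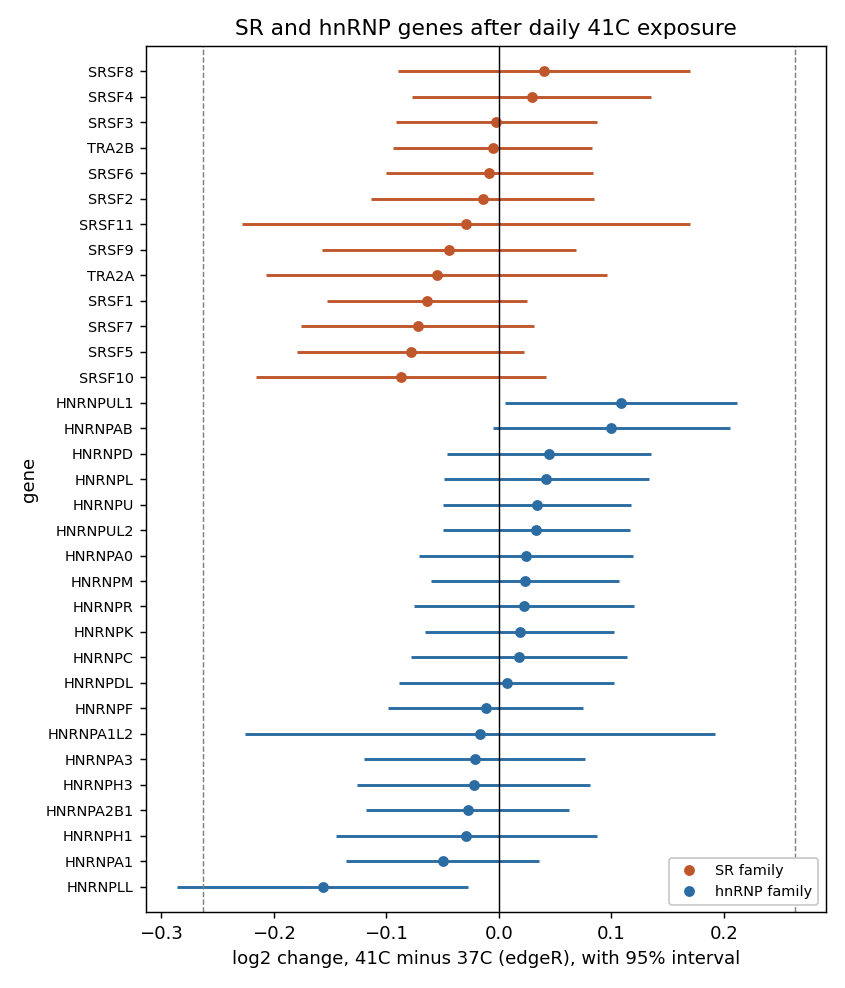
The x axis is the log2 change at 41C relative to 37C from edgeR and the y axis the gene, with points for the estimate, lines for the 95% interval and dashed lines at a 1.2-fold change in either direction. The intervals of 31 of the 33 genes include 0, those of HNRNPLL and HNRNPUL1 do not, and HNRNPLL alone reaches past a dashed line.

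**Figure D2:**
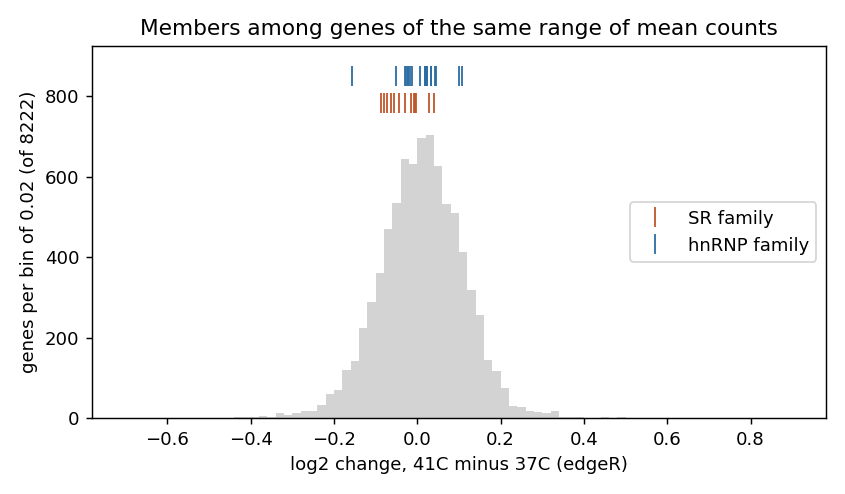
The x axis is the log2 change at 41C relative to 37C and the y axis the number of genes per bin, for the 8222 tested genes with a mean count in the members' range, and the ticks above are the 13 SR and 20 hnRNP genes. The ticks run from -0.16 to 0.11, inside the bulk of the grey distribution.

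Per kilobase of transcript, the hnRNP genes were the more abundant family. Their median level was 105.6 FPKM (fragments per kilobase of transcript and per 1000000 counts, the mean of the 6 libraries for each gene), with a range from 7.12 to 375 FPKM. The SR genes had a median of 52.2 FPKM and ran from 11.3 to 137 FPKM. HNRNPA2B1, which binds RNA in export and splicing and is a known reader of sorting motifs, led with 375 FPKM (362 to 399 FPKM over the 6 libraries). HNRNPA1, the best-studied exon silencer of the family, followed with 359 FPKM (344 to 371 FPKM), so the ranges of these neighbours overlapped. HNRNPK, a KH-domain protein that binds cytosine-rich RNA and DNA, stood lower at 309 FPKM (305 to 312 FPKM), and HNRNPC, which coats nascent transcripts at uridine tracts, lower again at 226 FPKM (219 to 237 FPKM). Neither of these ranges met that of its higher neighbour.

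SRSF2, an SR protein that stays in the nucleus, was the most abundant SR gene per kilobase, with 137 FPKM (131 to 144 FPKM). SRSF9 followed with 121 FPKM (115 to 129 FPKM) and SRSF1, the founding member of the family, with 79.4 FPKM (75.5 to 85.3 FPKM). At the other end stood SRSF11 with 17.9 FPKM, SRSF10 with 13.4 FPKM and SRSF8, a retrogene copy of SRSF2, with 11.3 FPKM. Of the 32 pairs of neighbours in this order, 19 had overlapping ranges over the 6 libraries, so much of the order in its middle is not settled. The order also rests on the 1 length per gene that the deposited FPKM values carry. SRSF10 and SRSF9 had nearly the same mean counts, 2957 and 2803, but lengths of 10955 and 1152 bases.

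**Figure D3:**
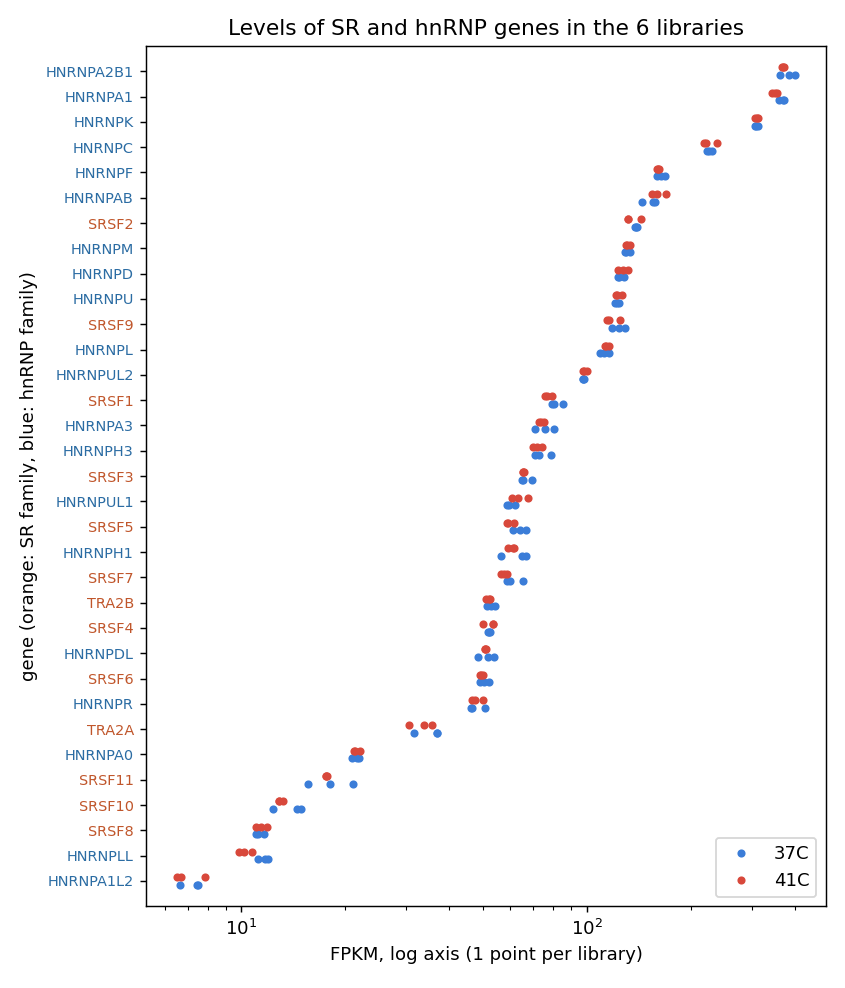
The x axis is the level in FPKM on a log axis and the y axis the gene, ordered by its mean, with 1 point per library in blue for 37C and red for 41C. The points of both temperatures lie together at each gene, from HNRNPA1L2 at 7.12 FPKM to HNRNPA2B1 at 375 FPKM.

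Among the SR proteins, the 4 with the smallest p-values were SRSF5, SRSF1, SRSF7 and SRSF10, each with a lower estimate at 41C. SRSF1, which acts in splicing, export and translation, had 466, 443 and 439 CPM after 37C treatment and 441, 426 and 424 CPM after 41C. The groups overlapped through 37C replicate 3 and 41C replicate 1. Its log2 change was -0.06 (95% interval -0.15 to 0.02, edgeR adjusted p = 0.540). SRSF5 had 158, 154 and 148 CPM at 37C and 143, 149 and 144 CPM at 41C, with 41C replicate 2 reaching into the 37C range. The change was -0.08 (-0.18 to 0.02, edgeR adjusted p = 0.496). SRSF7, a zinc-knuckle SR protein that shuttles and serves as an adaptor for export, had 192, 178 and 174 CPM against 168, 172 and 177 CPM. The value of 37C replicate 1 stood above all others, the remaining libraries overlapped, and the change was -0.07 (-0.18 to 0.03, edgeR adjusted p = 0.559).

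SRSF10, at chr1:23964804-23980927 on the minus strand (GENCODE 29, GRCh38), is the SR protein best known for dephosphorylation in heat. It had 161, 158 and 135 CPM at 37C and 144, 141 and 142 CPM at 41C. The 41C libraries were close to each other and lay between 37C replicate 3 and the other 37C libraries. Its log2 change of -0.09 (95% interval -0.22 to 0.04) did not pass (edgeR adjusted p = 0.578). Without 37C replicate 3 it did, at -0.16 (edgeR adjusted p = 0.0237), as did 2.65% of the 12154 genes tested in that fit in the lower direction. Its adjusted p in the other alternatives ran upwards from 0.314, so the call rests on leaving out that library.

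The other SR genes named by rule lay closer to 0. SRSF2 had 261, 259 and 261 CPM at 37C and 249, 249 and 275 CPM at 41C, so 41C held both its lowest and its highest values. Its log2 change was -0.01 (edgeR adjusted p = 0.935). SRSF3, the smallest SR protein and a regulator of its own poison exon, had 289, 273 and 276 CPM against 277, 277 and 283 CPM. The groups overlapped fully and the change was -0.0021 (95% interval -0.09 to 0.09). SRSF9 had 141, 135 and 149 CPM against 132, 134 and 145 CPM, a change of -0.04 (-0.16 to 0.07) with overlapping groups.

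TRA2A and TRA2B, paralogous activators that bind GAA-rich enhancers, differed in precision rather than in call. TRA2B had 290.2, 285 and 279 CPM at 37C and 283, 278 and 290.2 CPM at 41C, and its log2 change was -0.0053 (95% interval -0.09 to 0.08). TRA2A had 79.5, 79.9 and 69.3 CPM against 66.9, 74.4 and 78.9 CPM, with a change of -0.06 and a wider interval (-0.21 to 0.10). Both groups of TRA2A held a low library, 37C replicate 3 and 41C replicate 1. The remaining SR genes were SRSF4 at 0.03, SRSF6 at -0.0083, SRSF8 at 0.04 and SRSF11 at -0.03, all log2 changes that did not pass (edgeR adjusted p = 0.858, 0.961, 0.836 and 0.929). SRSF11, looked at after its values were seen, had the widest spread within a group of any member. Its libraries at 37C had 141, 121 and 105 CPM, a coefficient of variation of 14.3%, against 119, 120.3 and 121 CPM at 41C, one of 0.884%.

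The most abundant hnRNPs had small changes that did not pass. HNRNPA1 had 1372, 1377 and 1349 CPM at 37C and 1316, 1293 and 1350.2 CPM at 41C. A single library, 41C replicate 3, kept the groups from separating, and the log2 change was -0.05 (95% interval -0.14 to 0.04, edgeR adjusted p = 0.638). This change was negative in every setting, from -0.070 to -0.036. HNRNPA2B1, the member with the 3-unit heat shock element letters, had 1446, 1399.6 and 1329.6 CPM against 1369, 1361 and 1365 CPM. All 41C values lay within the 37C range, and the change was -0.03 (-0.12 to 0.06, edgeR adjusted p = 0.836). HNRNPC had 987, 1003 and 1029 CPM against 981, 995 and 1079.99 CPM, a change of 0.02 (-0.08 to 0.11) with 41C holding both extremes. Of the members with such letters SRSF8 was the other, with a change of 0.04 (-0.09 to 0.17). HNRNPK had 925, 939 and 951 CPM against 952, 936 and 963 CPM, a change of 0.02 (-0.07 to 0.10).

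HNRNPU and HNRNPUL2 separated the groups by small steps. HNRNPU, a scaffold protein that binds DNA and RNA and shapes chromatin, had 837, 834 and 829 CPM at 37C and 869, 839 and 852 CPM at 41C. Its 37C libraries differed so little (a coefficient of variation of 0.494%) that the groups did not overlap at a log2 change of 0.03 (95% interval -0.05 to 0.12, edgeR adjusted p = 0.767). Its relative HNRNPUL2 had a change of 0.03 (-0.05 to 0.12, edgeR adjusted p = 0.770). HNRNPD, the AU-rich element binding protein AUF1 that promotes decay of unstable messages, had 387, 378 and 377 CPM against 390.2, 378 and 409 CPM. Its groups overlapped, with a change of 0.04 (-0.05 to 0.14).

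The outer hnRNPs were HNRNPUL1 and HNRNPAB on the higher side and HNRNPLL on the lower. HNRNPLL, a paralog of HNRNPL known for repressing variable exons of CD45 in lymphocytes, lies at chr2:38561978-38603586 on the minus strand (GENCODE 29, GRCh38). It had 54.1, 55.8 and 52.3 CPM at 37C and 47.8, 50.8 and 46.9 CPM at 41C, every 41C library being below every 37C library. Its log2 change of -0.16 (95% interval -0.29 to -0.03) had the smallest p of the members and did not pass (edgeR adjusted p = 0.271). The adjusted p ran from 0.0723 upwards over the alternatives. HNRNPL itself had a log2 change of 0.04 (-0.05 to 0.13).

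HNRNPUL1, another relative of HNRNPU, had 278, 276 and 294 CPM at 37C and 299, 290.15 and 325 CPM at 41C, overlapping only through 37C replicate 3 and 41C replicate 2. Its log2 change was 0.11 (95% interval 0.0056 to 0.21, edgeR adjusted p = 0.336). HNRNPAB, which binds RNA and DNA, had 271, 254 and 279 CPM against 282, 275 and 305 CPM. The groups overlapped, and the change was 0.10 (-0.0055 to 0.21, edgeR adjusted p = 0.393). Exons of both genes overlap a gene on the opposite strand that also has a row, TGFB1 for HNRNPUL1 (log2 change 0.16 ± 0.08 SE) and PHYKPL for HNRNPAB (-0.27 ± 0.11 SE). The same holds for HNRNPA2B1, HNRNPH3, HNRNPU, SRSF2 and SRSF9, 7 members in all. The libraries came from a stranded kit, but no source used here gives the strand setting of the counting, and how reads of such pairs were divided was not tested.

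The remaining hnRNPs had log2 changes from -0.03 in HNRNPH1 to 0.02 in HNRNPA0. HNRNPH1 and HNRNPH3, which bind G-runs, stood at -0.03 and -0.02, their relative HNRNPF at -0.01, HNRNPA3 at -0.02, HNRNPDL at 0.0072, HNRNPM at 0.02 and HNRNPR at 0.02. HNRNPA1L2, a processed copy of HNRNPA1 with nearly the same sequence, was the member closest to the count minimum. Its raw counts were 301, 337 and 340 for the 37C libraries and 377, 319 and 302 for the 41C libraries, and its value is uncertain because reads may fit both copies. Far below the minimum stood HNRNPH2, with 17, 11 and 14 counts against 8, 10 and 9, and HNRNPCL1, with 0, 0 and 1 against 0, 1 and 0.

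Set against each other, the families leaned slightly apart. Of the 13 SR genes 11 had a negative log2 change, with a median of -0.029. Of the 20 hnRNP genes 12 had a positive one, with a median of 0.018, though the hnRNP median was slightly negative with upper-quartile scaling (-0.0021). The positive share was thus 15.4% in the SR and 60% in the hnRNP family. Of all tested genes 50.9% had a positive change, with a median of 0.0023 (-0.018 with upper-quartile scaling). Among the 8222 genes in the members' range of mean counts, 55.2% were positive and the median was 0.012. The hnRNP values were near these. The SR median minus the hnRNP median was -0.048. When 41C replicate 1 was left out this difference was -0.015 and the SR median -0.0027. With the length correction the difference was -0.026, and 9 of the 13 SR genes were negative. Of all 12056 tested genes 6582 were positive with that correction. No p-value is given for these family values, since the genes were chosen together and share the same libraries. The count of 11 negative SR genes was 7 when 37C replicate 1 was left out, 7 when 41C replicate 1 was and 8 when 41C replicate 2 was.

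The families can also be compared within each library, where scaling between libraries plays no part, and there the measures differed. By the median deviation of its genes from their own means, the SR family minus the hnRNP family stood at 0.055, 0.018 and -0.018 on the log2 scale at 37C and at -0.050, 0.00077 and 0.011 at 41C, with overlapping groups. The summed SR counts were 25.8, 25.1 and 24.7% of the summed hnRNP counts at 37C and 24.3, 24.8 and 24.5% at 41C, which overlapped too. Of these 3 measures only the one on the FPKM scale, which weights by length, separated the groups. Summed over their genes, SR transcripts amounted to 30.0, 29.4 and 29.4% of the hnRNP FPKM in the 3 libraries at 37C and to 28.3, 29.1 and 29.1% at 41C. The means were 29.6 ± 0.372% and 28.8 ± 0.465% (SD, n = 3), and the 41C libraries all lay below the 37C libraries, the closest being 29.1 and 29.4%. The SR genes took 0.260, 0.249 and 0.242% of all counts at 37C and 0.240, 0.240 and 0.244% at 41C, with overlap. For the hnRNP genes these shares were 1.008, 0.992 and 0.977% against 0.987, 0.969 and 0.995%, overlapping as well.

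The range of the libraries at one temperature was mostly larger than the difference of the group means. In 26 of the 33 members the range of the 3 libraries at 37C exceeded the difference of the group means, and in 24 the range at 41C did. A range of 3 libraries tends to exceed a difference of group means even where temperature has no effect, so these counts were largely to be foreseen. The same shares over all tested genes were not computed, so these counts do not set the members apart. The SR genes shared part of the spread between libraries. In 8 of the 13 SR genes the highest of the 6 values was that of 37C replicate 1, and the lowest was that of 41C replicate 1 in 6 and of 37C replicate 3 in 4. The median SR deviation from each gene's mean was 0.052, 0.0074 and -0.020 on the log2 scale at 37C and -0.041, -0.012 and 0.026 at 41C. The median hnRNP deviation stayed between -0.013 and 0.015 in every library, although 37C replicate 3 was the lowest library for 8 of the 20 genes and the highest for 0. How often each library was the highest or lowest among all tested genes was not counted. These patterns may therefore not be particular to either family.

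**Figure D4:**
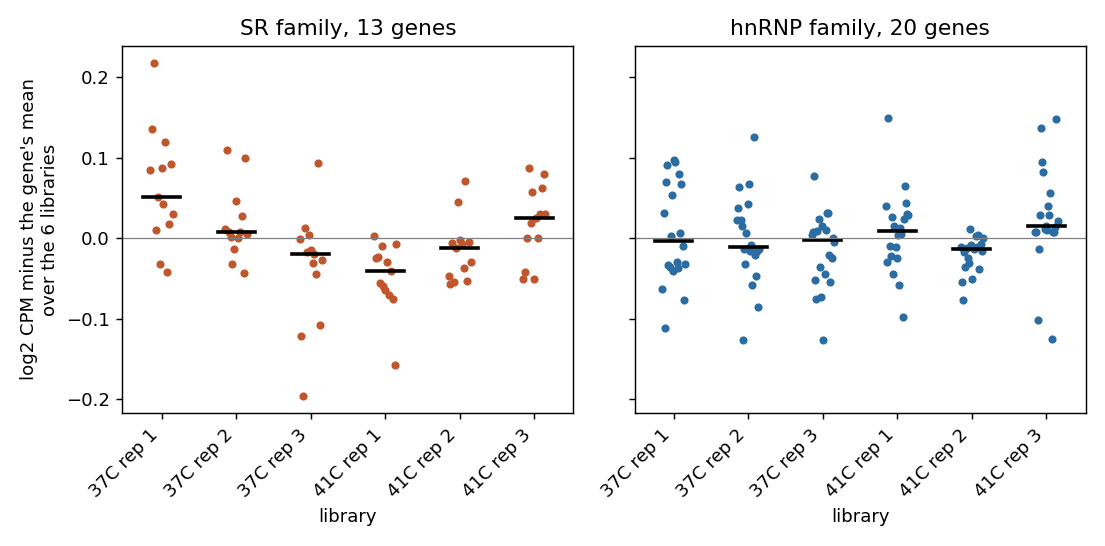
The x axis is the library and the y axis the log2 CPM of a gene minus its mean over the 6 libraries, with 1 point per gene and a black bar at the family median. The SR medians range from -0.041 in 41C replicate 1 to 0.052 in 37C replicate 1, while the hnRNP medians stay between -0.013 and 0.015.

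Other genes of the splicing pathway, from lists drawn from textbook knowledge, mostly did not pass either. Of 10 tested kinases and import receptors of SR proteins, 0 passed (edgeR, 0 at an unadjusted p under 0.05, against 13.7% of all tested genes) and the median log2 change was 0.03. The smallest p-values were those of the kinase SRPK2 (0.13 ± 0.06 SE) and the import receptor TNPO2 (0.08 ± 0.05 SE). The CLK kinases CLK1, CLK2, CLK3 and CLK4, which phosphorylate SR proteins in the nucleus, had log2 changes of -0.15, -0.04, -0.06 and 0.01, and 0 passed. Of 20 SR-related proteins 0 passed and 2 (10%) had an unadjusted p under 0.05, against that 13.7%. Of their changes 18 were positive, or 90% against 50.9% of all tested genes, with a median of 0.06. With a correction for transcript length 16 were positive and the median was 0.04. Of all 12056 tested genes 6582 were positive with that correction, and their median was 0.012. SCAF4, which prevents early polyadenylation, had the smallest p (0.20 ± 0.06 SE, edgeR adjusted p = 0.162), followed by THRAP3 (0.10 ± 0.05 SE).

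Among 29 hnRNPs known by protein name and related regulators, 0 passed and 3 (10.3%, against 13.7% of all tested genes) had an unadjusted p under 0.05, with a median of 0.02. PTBP1, the polypyrimidine tract binding hnRNP I, had 0.11 ± 0.04 SE (edgeR adjusted p = 0.280). In the nonsense-mediated decay list 0 of 15 passed and 3 (20%) had an unadjusted p under 0.05, against that 13.7%. The helicase UPF1, central to this decay, had a log2 change of 0.13 ± 0.05 SE (edgeR adjusted p = 0.221).

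Of 30 core spliceosome genes 1 rose and 0 fell, where 1.09% of all tested genes passed. An unadjusted p under 0.05 was reached by 9 of the 30 (30%), against 13.7% of all tested genes. PRPF8, the large protein at the catalytic centre of the spliceosome, had 839, 834 and 859.5 CPM at 37C and 991, 989 and 1002 CPM at 41C. All 41C libraries lay above all 37C libraries, and the log2 change was 0.24 ± 0.04 SE (edgeR adjusted p = 0.00715). The call ended when 37C replicate 2 (adjusted p = 0.124), 41C replicate 1 (0.0580) or 41C replicate 2 (0.0997) was left out and with limma on log2(FPKM + 1) or log2(FPKM + 0.1) (0.107 and 0.0753). Its partner SNRNP200, the helicase that unwinds U4 from U6, had 0.16 ± 0.04 SE and did not pass (edgeR adjusted p = 0.0654), but did with DESeq2 (0.0285), no filter (0.0414), the replicate block (0.00891) and without 37C replicate 3 (0.00748). The median of all tested genes was 0.0023, and 0.012 with the length correction. The list's median was 0.02, and 0.07 with that correction. Its lowest value, -2.60 ± 1.85 SE, belonged to U2AF1, which has a near-identical copy and is uncertain.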

How the data were processed

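RNA of 6 HaCaT libraries was extracted with a mirVana kit and sequenced from TruSeq stranded mRNA libraries, per the labels' protocols. The submitters' processing notes list Trimmomatic 0.36, HISAT2 and the build GRCh38.p13. For the counter, its annotation and its strand setting nothing is given in the sources used here. The authors deposited whole-number counts per gene symbol and FPKM values. Each nonzero FPKM deposited by the authors equals the count per kilobase of 1 length per gene and per 1000000 counts, with a largest deviation of 2.82e-05%, so it is no independent measurement.

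Counts were tested with edgeR 4.0.16 (R 4.3.3): filterByExpr, TMM scaling, robust quasi-likelihood fit, two-sided, 41C against 37C, adjusted by Benjamini-Hochberg over 12056 genes. A standard error is the log2 change over the root of F, and 95% intervals use the fit's degrees of freedom. An exact permutation test of 3 against 3 libraries cannot go below 0.1. CPM values are TMM-scaled. The procedure was tested on simulated data with 50 planted genes at each fold. It called 3 of them at a 1.1-fold change, 22 at 1.2-fold, 34 at 1.3-fold and 44 at 1.5-fold. Most changes of about 1.1-fold would thus not be called. The planted genes had a mean of at least 50 counts and were not matched to the members. Alternatives used DESeq2 1.42.0, limma 3.58.1, other scaling factors and filters, a replicate block, FPKM, a length correction (spline, 4 degrees of freedom) and each library left out.

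The members and lists were chosen with earlier results of these data known. Genes given per library were, by rule, those past the threshold, the 4 smallest p-values and the 3 highest FPKM levels in each family, and 12 fixed by name. Of each pathway list, the 2 genes with the smallest p-values were to be named, and some of these are not reported here. Positions and exon overlaps are from GENCODE 29, in which all 33 symbols matched. Protein features were planned and not analysed here.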

Additional observations from a re-analysis of the deposited data

How the results depend on the processing

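None of the 33 members passed under the 10 other fits or with protein-coding rows alone, which removed no row, and the count without single libraries was 0 to 1, the 1 being SRSF10 without 37C replicate 3. DESeq2 gave no adjusted p for HNRNPA1L2. The SR median of -0.029 ran from -0.048 to -0.016 over those fits and from -0.054 to -0.0027 without single libraries. The hnRNP median of 0.018 became -0.0021 with upper-quartile scaling and -0.00081 with limma on log2(FPKM + 1) or on log2(FPKM + 0.1), and was 0.011 to 0.029 without single libraries. The median of all genes was lower in these fits too. It was -0.018 with upper-quartile scaling and -0.011 and -0.014 with limma on log2(FPKM + 1) and log2(FPKM + 0.1), against 0.0023 in the main fit. The cause was not tested. Without HNRNPA1L2, an alternative chosen after seeing the data, the hnRNP median was 0.019. The difference of the medians, -0.048, was -0.066 to -0.015 without single libraries. The log2 change kept its sign in every setting in 16 of the 33 members. The replicate numbers were not taken as pairs, since deviations of same-numbered libraries correlated at 0.082, -0.019 and 0.077. For 37C replicates 1 and 3 the same-numbered library was the best match, while 37C replicate 2 correlated best with 41C replicate 3 (0.061). A pairing is not excluded by these values. With the replicate block 0 members passed and the SR median was -0.021. Over all genes the block gave 438 calls against 131, DESeq2 203, no filter 284, and limma on log2(FPKM + 1) and log2(FPKM + 0.1) 0 and 3. Without 37C replicates 1, 2 and 3 there were 223, 17 and 805 calls, and without 41C replicates 1, 2 and 3 there were 36, 5 and 41. The number of libraries, 3 a group, limits how small a change could be called, and HNRNPA1L2, with the fewest counts, had the largest standard error (0.0988).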
